A study of Mus musculus with 16 samples.

Results

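A set of 10 genes that mark regulatory T (Treg) cells, namely Foxp3, Il2ra, Ikzf2, Ikzf4, Ctla4, Ccr8, Nrp1, Lrrc32, Itgb8 and Gpr83, were followed across T cells from mouse tumors. They were taken by gene name from the count table, in which each of the 10 members has 1 row among 55450 gene rows. Total RNA of CD4+ and CD8+ tumor-infiltrating lymphocytes (TILs) was sequenced from s.c. tumors of B16F10, a transplantable mouse melanoma line, grown in WT and Sirt2KO mice. Each genotype and cell type had 4 libraries, so that WT CD4, Sirt2KO CD4, WT CD8 and Sirt2KO CD8 TILs gave 16 libraries. SIRT2 is an NAD-dependent deacetylase, and the study's stated purpose was to see how its loss affects pathways downstream of the T cell receptor within tumors. The Sirt2-/- line was B6.129-Sirt2tm1.1Fwa/J, a germline knockout, so that every host cell and not only the T cells lacked SIRT2, and WT controls were C57BL/6J. Mice were 7 to 8 weeks old. The labels name no treatment other than the tumor. TILs were enriched with beads against CD3ε, and how CD4+ and CD8+ cells were then separated was not given in the sources used here. The labels do not say from which animal each library came, so p-values measure the spread between these libraries.

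Treg cells are CD4+ T cells that restrain other T cells, and they are common among the CD4+ T cells of tumors. FOXP3 is the transcription factor that defines them. The high-affinity IL-2 receptor chain encoded by Il2ra keeps them supplied with IL-2, CTLA-4 strips costimulatory ligands from antigen-presenting cells, and the pair of GARP (Lrrc32) and integrin β8 (Itgb8) holds and releases latent TGF-β at the cell surface. None of these genes is exclusive to Treg cells: activated conventional T cells of both lineages can express Il2ra and Ctla4, for example. In bulk RNA, fewer cells of a type and less RNA per cell cannot be told apart.

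Total counts on genes ranged from 28000949 to 62407851 per library. The libraries Sirt2KO CD4 replicate 4, WT CD4 replicate 1 and WT CD8 replicate 1 stood apart, with 8169, 12587 and 14411 genes detected against 17730 to 22138 in the other 13 libraries. Values below are CPM, gene counts scaled to a common library size after TMM normalization. Sirt2 ranged from 0 to 12.2 CPM in the 8 Sirt2KO libraries and from 33.4 to 75.6 CPM in the 8 WT libraries, with no overlap. The labelled cell types were checked in their defining genes: Cd4 lay between 384 and 620.5 CPM in CD4 libraries and between 0 and 4.94 CPM in CD8 libraries, and Cd8a lay between 0.033 and 33.4 CPM in CD4 libraries and between 1004 and 1262 CPM in CD8 libraries. Summed markers of macrophages reached at most 36.4 CPM and those of melanocytes at most 84.2 CPM in any library, against at least 1698 CPM for the T cell markers. Other lists reached more, with 158 CPM for conventional dendritic cells, 164 CPM for endothelial cells and 449 CPM for NK cells. These sums rested on few genes. Ccr7, also a receptor of naive T cells, made up 151 of the 158 CPM, in Sirt2KO CD4 replicate 1. Pecam1 was the only endothelial gene that passed the filter between cell types. Of the NK list, edgeR called Eomes higher in CD8 libraries of WT (log2 difference 3.48) and Sirt2KO (3.58) and Klre1 in WT (4.38). Ncr1 and Klrb1c were not called. Which cells carried these genes was not tested.

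On GRCm38 with GENCODE M21, the members lie on 8 chromosomes. Foxp3 (ENSMUSG00000039521.13) spans chrX:7573644-7595245 on the forward strand, where it shares bases with 4 other annotated genes, 1 of them, the noncoding RNA Flicr, on the same strand. Reads in such shared stretches cannot be assigned with certainty, since the strand setting of the counting was not given in the sources used here. Il2ra lies at chr2:11642807-11693193 and Gpr83 at chr9:14860210-14870789, both on the forward strand. Promoter windows of 250 bases before a transcription start were taken from RefSeq (GRCm38.p6). These were held for 7 of the 10 members in 8 windows, since Foxp3 has 2 starts, and were searched on both strands for 5 short motifs of factors that act in Treg cells. The forkhead core (GTAAACA, present in 3.17% of all 32851 windows) and the RUNX motif (TGTGGTT, 4.4%) matched none of the 8. The STAT5 motif (TTCNNNGAA, 7.02% of all windows), the ETS motif (GGAAGT, 19.7%) and the Ikaros family motif (TGGGAA, 21.6%) matched 1 window each. A match is a run of letters and not a shown binding site. The 3 windows with a match are printed because they belong to the gene that defines the lineage, to the IL-2 receptor chain and to the member that differed most between genotypes in CD8 libraries. The capitals mark the motif. The first is chrX:7580233-7580482, within the Foxp3 gene and an exon of Flicr, with the STAT5 motif 139 to 131 bases before the start. The second is chr2:11642542-11642791, upstream of Il2ra, with the ETS motif read on the opposite strand 35 to 30 bases before the start. The third is chr9:14859960-14860209, upstream of Gpr83, with the Ikaros family motif 120 to 115 bases before the start. All are on the forward strand.
Foxp3: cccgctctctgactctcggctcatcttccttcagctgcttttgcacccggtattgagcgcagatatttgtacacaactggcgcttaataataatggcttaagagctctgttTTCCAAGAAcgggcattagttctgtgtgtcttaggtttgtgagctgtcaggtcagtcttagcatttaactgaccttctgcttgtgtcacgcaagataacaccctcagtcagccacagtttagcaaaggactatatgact
Il2ra: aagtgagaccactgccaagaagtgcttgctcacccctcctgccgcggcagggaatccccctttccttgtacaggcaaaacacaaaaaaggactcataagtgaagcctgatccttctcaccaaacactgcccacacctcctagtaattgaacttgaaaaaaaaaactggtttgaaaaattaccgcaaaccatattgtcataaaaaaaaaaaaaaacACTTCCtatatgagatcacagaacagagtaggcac
Gpr83: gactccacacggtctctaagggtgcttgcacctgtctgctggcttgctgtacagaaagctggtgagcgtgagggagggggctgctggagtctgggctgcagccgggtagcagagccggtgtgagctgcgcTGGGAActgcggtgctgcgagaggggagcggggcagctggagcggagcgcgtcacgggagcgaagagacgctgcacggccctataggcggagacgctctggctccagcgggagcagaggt

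The first question was how far each member separated CD4 from CD8 TILs. In WT TILs all 10 members were lower in CD8 than in CD4 libraries, and in each the 4 CD8 libraries lay below the 4 CD4 libraries. The size of the difference divided the members. Foxp3, Itgb8, Lrrc32, Gpr83 and Ctla4 fell by more than 4 on the log2 scale, Ccr8, Il2ra and Ikzf2 by about 3, and Ikzf4 and Nrp1 by 1.32 each. In the same test 6.96% of the 14892 genes tested were called lower in CD8 libraries, and in 10% of them the CD8 libraries all lay below the CD4 libraries. No member was higher in CD8 libraries, where 4.89% of genes were called higher. The median log2 difference was -4.01 over the members and -0.023 over all genes tested.

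**Figure D1:**
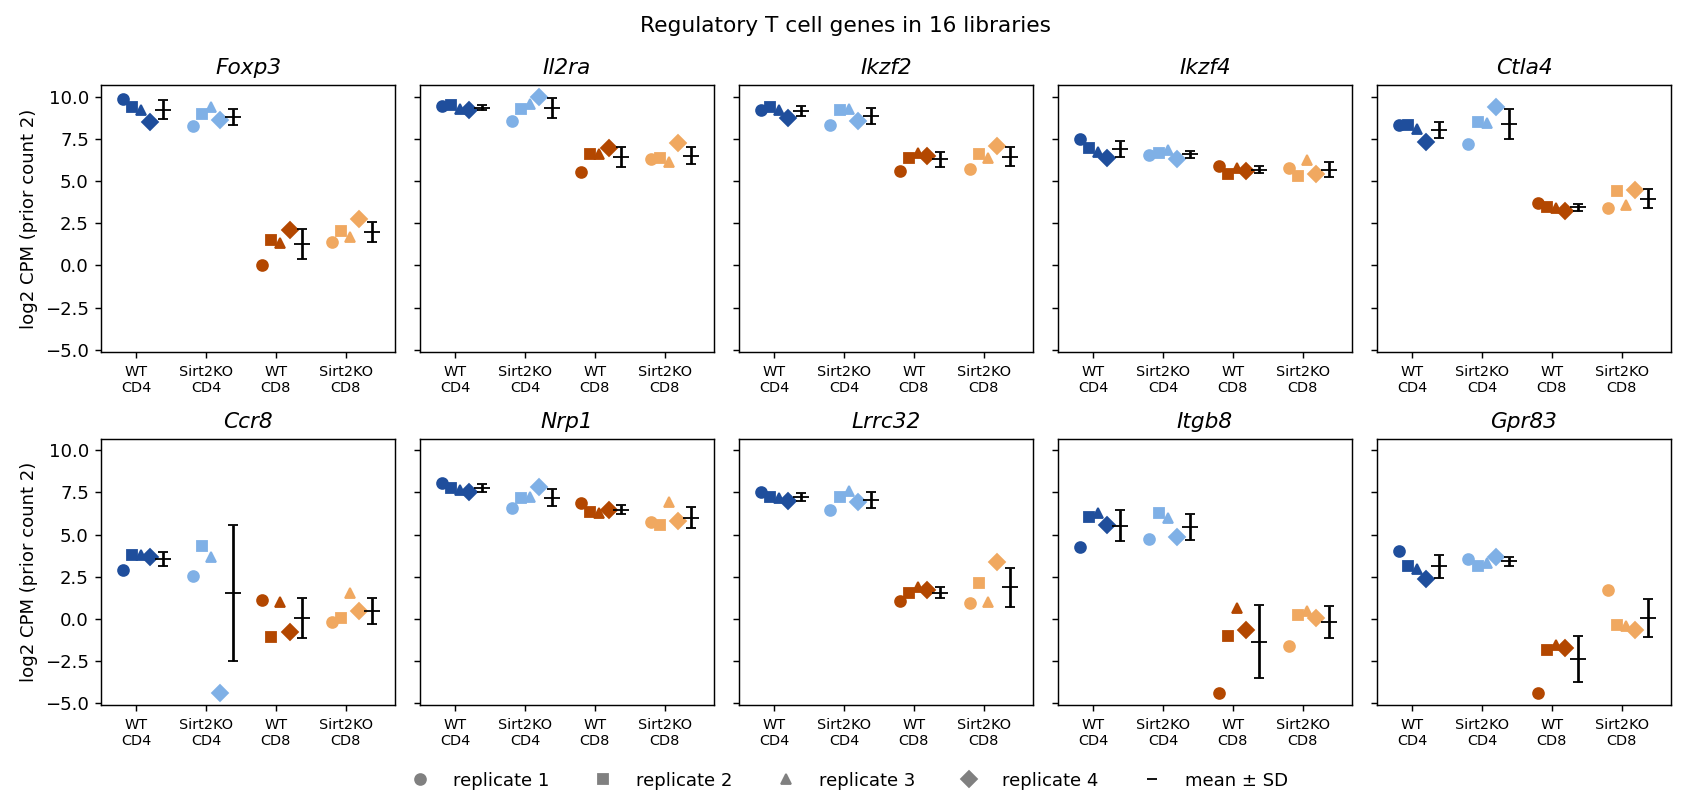
Level of each of the 10 genes in the 16 libraries, as log2 CPM with a prior count of 2 on the y axis and the 4 groups on the x axis. Each symbol is 1 library, and the black mark beside each group is the mean ± SD (n = 4). Foxp3, Lrrc32, Itgb8 and Ctla4 show a wide gap between CD4 and CD8 libraries, Ikzf4 and Nrp1 a narrow one, and libraries with 0 counts sit at the bottom of the axis.

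Among the transcription factors, Foxp3 stood at 924, 674, 591 and 359 CPM in WT CD4 replicates 1 to 4, and at 0.969, 2.83, 2.5 and 4.32 CPM in WT CD8 replicates 1 to 4. The lowest CD4 library was thus far above the highest CD8 library. The log2 difference was -7.97 (SE 0.47, edgeR quasi-likelihood test, adjusted p = 4.15e-06), a 250.1-fold lower level. Ikzf2, which encodes the Ikaros family factor Helios, was kept at a much larger share in CD8 TILs: it ranged from 428 to 670.1 CPM in WT CD4 and from 48.9 to 99.4 CPM in WT CD8 libraries (log2 difference -2.91, SE 0.23, edgeR adjusted p = 2.68e-05). Ikzf4, which encodes the family member Eos, had CD4 values of 81 to 177 CPM and CD8 values of 42.8 to 59.4 CPM (log2 difference -1.32, SE 0.22, edgeR adjusted p = 0.0024).

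Of the receptors, Il2ra was abundant in both cell types. It ranged from 582 to 733 CPM in WT CD4 and from 47.2 to 124 CPM in WT CD8 libraries, a log2 difference of -2.91 (SE 0.25, edgeR adjusted p = 4.95e-05). Ctla4 stood at 320, 322, 274 and 157 CPM in WT CD4 replicates 1 to 4 against 13, 10.8, 10.4 and 9.29 CPM in WT CD8 replicates 1 to 4, so that the CD8 libraries varied little (log2 difference -4.69, SE 0.25, edgeR adjusted p = 1.97e-06). Ccr8, a chemokine receptor found on Treg cells of tumors, was a weak gene here. Its WT CD4 values were 7.49 to 14 CPM and its WT CD8 values 0.423 to 2.15 CPM, which is 16 to 71 counts per CD8 library (log2 difference -3.32, SE 0.65, edgeR adjusted p = 0.0069). Nrp1, a coreceptor for semaphorins and VEGF that is often used to mark Treg cells from the thymus, ranged from 183 to 266 CPM in WT CD4 and from 78.7 to 116 CPM in WT CD8 libraries (log2 difference -1.32, SE 0.16, edgeR adjusted p = 0.00047). Nrp1 and Ikzf4 were the members with the smallest separation. Endothelial cells and plasmacytoid dendritic cells are also known to express Nrp1, and their summed markers stood at 36.2 to 47.1 and 12.9 to 45.3 CPM in WT CD8 libraries and at 88.3 to 116 and 6.06 to 40.5 CPM in WT CD4 libraries. Of the 5 genes listed for each of these cell types, 2 had 0 counts in all WT CD4 libraries and 1 in all WT CD8 libraries. A sum can thus rest on few genes. The part of these cells in the Nrp1 level was not tested. Gpr83, a G protein-coupled receptor known from Treg cells, had 5.09 to 16.1 CPM in WT CD4 libraries, 0 counts in WT CD8 replicate 1 and 9 to 11 counts in the other WT CD8 libraries (log2 difference -5.61, SE 0.96, edgeR adjusted p = 0.0033, a fitted value that depends on the prior count).

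The genes for TGF-β presentation were both low in WT CD8 TILs. Lrrc32 stood at 187, 147, 144 and 128 CPM in WT CD4 replicates 1 to 4 and at 2.09, 2.83, 3.64 and 3.3 CPM in WT CD8 replicates 1 to 4 (log2 difference -5.74, SE 0.22, edgeR adjusted p = 2.29e-07). It was the member with the smallest p. Itgb8 was more uneven: WT CD4 replicate 1 had 18.8 CPM against 47.5 to 77.3 CPM in the other 3, and in WT CD8 TILs it ranged from 0 to 56 counts (log2 difference -6.42, SE 0.86, edgeR adjusted p = 0.00077).

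Per kilobase of annotated exon, which allows genes to be set against each other, Foxp3 had the highest mean level of the members in WT CD4 TILs at 139 CPM per kb ± 50.9 (SD, n = 4). Ctla4 at 115 ± 33.2 and Il2ra at 115 ± 12.2 CPM per kb followed within the spread of Foxp3. Ikzf2, Lrrc32, Nrp1, Ikzf4, Ccr8, Itgb8 and Gpr83 came next in that order, from 49.3 CPM per kb for Ikzf2 down to 1.85 for Gpr83, and Nrp1 (22 ± 3.68) and Ikzf4 (20.4 ± 6.74) did not differ beyond their spread. In WT CD8 TILs the order was another one. Il2ra led at 16.1 ± 5.62 CPM per kb (SD, n = 4), Nrp1, Ikzf4, Ikzf2 and Ctla4 followed between 9.25 and 4.67, and Foxp3 was 8 in rank at 0.58 ± 0.3. In Sirt2KO CD4 TILs the first 3 were Ctla4 at 164 ± 92.1, Il2ra at 120.1 ± 45.7 and Foxp3 at 102 ± 34.3 CPM per kb (SD, n = 4), which did not differ beyond their spread.

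Without Sirt2 the separation had the same direction for all 10 members, but 6 of the 10 passed the test, against 1.32% of the 15787 genes tested that were called lower in CD8 libraries and 0.918% called higher. The libraries of the cell types did not overlap for 8 of the 10, all but Ccr8 and Nrp1, where 6.22% of genes lay lower in CD8 TILs without overlap. Foxp3 stood at 306, 497, 671 and 393 CPM in Sirt2KO CD4 replicates 1 to 4 and at 2.56, 4.02, 3.2 and 6.77 CPM in Sirt2KO CD8 replicates 1 to 4. The log2 difference was -6.83 (SE 0.43, edgeR adjusted p = 0.00063). Lrrc32 stood at 89.7, 152, 191 and 124 CPM in Sirt2KO CD4 replicates 1 to 4 and at 1.91, 4.42, 1.93 and 10.5 CPM in Sirt2KO CD8 replicates 1 to 4, where the last library was set apart (log2 difference -4.91, SE 0.64, edgeR adjusted p = 0.008). Itgb8 ranged from 26.3 to 76.3 CPM in CD4 and from 0.285 to 1.36 CPM in CD8 libraries (log2 difference -5.71). Ctla4 ranged from 148 to 668 CPM in CD4 and from 10.3 to 21.8 CPM in CD8 libraries, and its log2 difference was -4.56, against -4.69 in WT TILs. Il2ra (-2.86) and Ikzf2 (-2.39) also passed. Ikzf2 lost its call without Sirt2KO CD8 replicate 2 (edgeR adjusted p = 0.051) or replicate 3 (edgeR adjusted p = 0.053). The median log2 difference was -2.95 over the members and 0.163 over all genes tested.

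The other 4 members had log2 differences of -3.05 (Gpr83), -2.67 (Ccr8), -1.14 (Nrp1) and -0.88 (Ikzf4) and did not pass. Ccr8 stood at 5.9, 19.8 and 12.8 CPM in Sirt2KO CD4 replicates 1 to 3 and at 0 counts in replicate 4, where 3 counts would be 0.0537 CPM. That library is the one with 8169 genes detected. Without it, Ccr8 (edgeR adjusted p = 0.002), Gpr83 (edgeR adjusted p = 0.0054) and Ikzf4 (edgeR adjusted p = 0.0087) passed as well, and 9 of 10 members were lower. The calls over all genes rose too. Without that library 4250 of 16703 genes tested were called in either direction, against 354 of 15787 with it. Nrp1 overlapped between the cell types, because Sirt2KO CD8 replicate 3 at 123 CPM lay above Sirt2KO CD4 replicate 1 at 94 CPM.

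Cd4 reads were then used as the measure of CD4+ cells among CD8 libraries. Cd4 was at 0 counts in WT CD8 replicate 1 (3 counts would be 0.0908 CPM) and at 0.979, 0.598 and 2.03 CPM in WT CD8 replicates 2 to 4. In Sirt2KO CD8 replicates 1 to 4 it was at 1.75, 3.98, 1.84 and 4.94 CPM, so that the genotypes overlapped. As a share of the mean CD4-library level of the same genotype, Cd4 came to 0.177% in WT and 0.623% in Sirt2KO CD8 TILs. Cd40lg, the CD40 ligand of helper T cells, came to 0.878% and 1.4%. Zbtb7b, a CD4 lineage factor, came to far more, at 9.52% in WT and 11.1% in Sirt2KO CD8 TILs. That is above the shares of Foxp3, Itgb8, Lrrc32 and Ctla4 given next, so the measure depends on the gene chosen.

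Every member was present in CD8 libraries at a larger share of its CD4-library level than Cd4 was. The shares of Foxp3 were closest to those of Cd4, at 0.417% in WT and 0.886% in Sirt2KO CD8 TILs, which is 2.35 and 1.42 times the share of Cd4 and below the share of Cd40lg. Itgb8 came to 1.22% and 1.93%, Lrrc32 to 1.95% and 3.36%, and Gpr83 to 2.09% and 12.1% in WT and Sirt2KO TILs. Single libraries weighed on some of these means. Without Sirt2KO CD8 replicate 1 the share of Gpr83 in Sirt2KO was 6.21%, and without Sirt2KO CD8 replicate 4 that of Lrrc32 was 1.98%. In WT the share of Itgb8 was 0.663% without WT CD8 replicate 3, and without WT CD8 replicate 4 those of Cd4 and Cd40lg were 0.103% and 0.539%. Ctla4 followed at 4.06% and 4.26% in WT and Sirt2KO TILs. For the remaining members the share was above 10% in both genotypes: Ccr8 (10.5% and 15.9%), Il2ra (14% and 13.9%), Ikzf2 (14% and 19.3%), Ikzf4 (41.8% and 54.6%) and Nrp1 (42% and 45.4%). If CD4+ cells in the CD8 libraries carried these genes in the ratio to Cd4 of the CD4 libraries, they would bring 1.13 of the 2.65 CPM of Foxp3 in WT and 2.91 of the 4.14 CPM in Sirt2KO CD8 TILs, but 1.16 of 91.8 and 4.27 of 95.4 CPM of Il2ra. The source of the remaining levels was not tested.

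**Figure D2:**
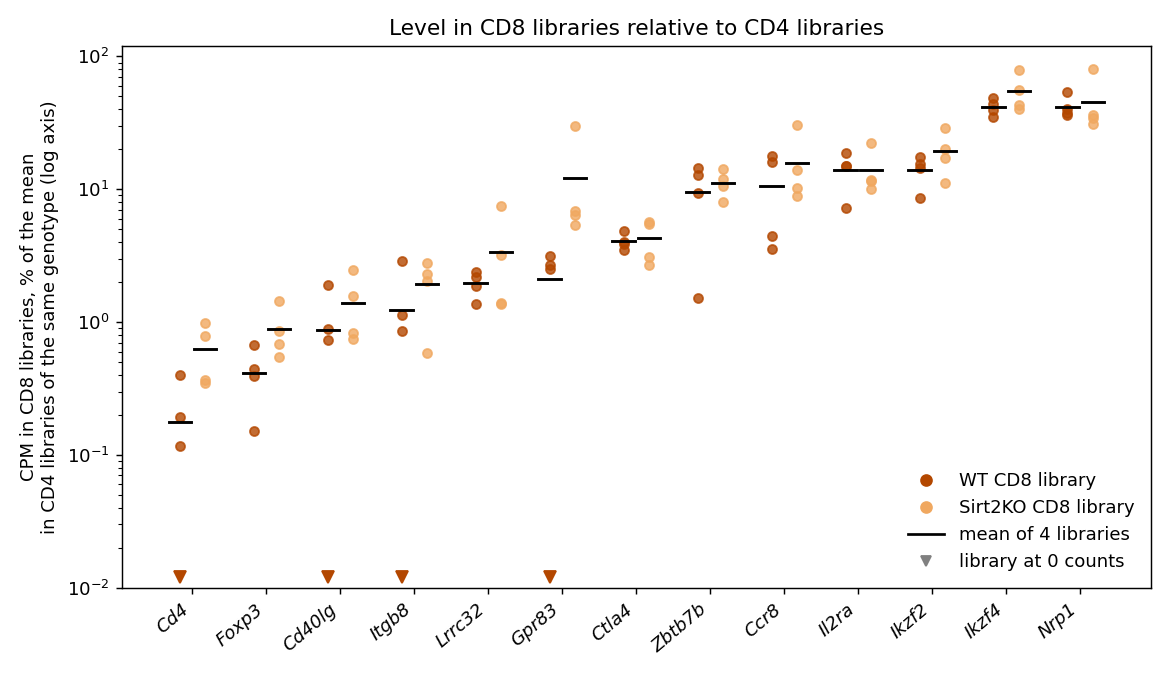
Level of each gene in CD8 libraries as a percentage of its mean CPM in CD4 libraries of the same genotype, on a log axis, with Cd4, Cd40lg and Zbtb7b (a CD4 lineage factor) for comparison. Points are libraries, lines are means of 4 and triangles are libraries at 0 counts. Foxp3 lies next to Cd4 at the left, whereas Ikzf4 and Nrp1 lie at the right with means of 41.8% to 54.6%.

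Across the 8 CD8 libraries, Foxp3 and Cd4 rose together on the log2 CPM scale, with Pearson's r = 0.942 (exact permutation p = 0.0014) and Spearman's rho = 0.952 (exact permutation p = 0.0011), two-sided. Sirt2KO CD8 replicate 4 was highest and WT CD8 replicate 1 lowest in both genes. After centring within genotype r was 0.941, with an exact permutation p = 0.0017 from orders within each genotype, the smallest that the 576 orders allow. Without WT CD8 replicates 1 and 3, the libraries farthest from the median of Cd4, r was 0.817 (exact permutation p = 0.047) and rho 0.886 (exact permutation p = 0.033) over 6 libraries. With 4 CD8 libraries in each genotype, no separate correlation was computed within either.

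Counts of Foxp3 per count of Cd4 were 1.96, 1.09, 1.17 and 0.823 in WT CD4 replicates 1 to 4, and 0.629, 0.832, 1.25 and 1.02 in Sirt2KO CD4 replicates 1 to 4. In Sirt2KO CD8 replicates 1 to 4 they were 1.47, 1.01, 1.74 and 1.37, all below the 1.96 of WT CD4 replicate 1. Sirt2KO CD8 replicates 1, 3 and 4 lay above every CD4 library of their own genotype. In WT CD8 replicates 2 to 4 the counts of Foxp3 per count of Cd4 were 2.89, 4.18 and 2.13, above every other library. WT CD8 replicate 1 had 32 counts of Foxp3 with 0 of Cd4. On the log2 scale with a prior count of 2, Foxp3 per Cd4 was 1.98 higher in CD8 than in CD4 libraries of WT TILs and 0.59 higher in those of Sirt2KO TILs. Between genotypes it was 1.79 lower in Sirt2KO than in WT CD8 libraries and 0.4 lower in Sirt2KO than in WT CD4 libraries. None of these 4 comparisons passed after adjustment: the exact permutation test, two-sided, gave adjusted p = 0.057, 0.11, 0.057 and 0.34 in this order, from unadjusted p = 0.029, 0.086, 0.029 and 0.34, and 0.029 is the smallest p that 4 libraries against 4 allow. All 4 differences turned when Cd40lg took the place of Cd4, to -0.71, -2.71, 0.29 and 2.29 in the same order, with Cd40lg at 0 counts in WT CD8 replicate 1 and Sirt2KO CD4 replicate 4, and none of these passed either. Without the WT CD8 library at 0 counts of Cd4, an alternative chosen after its value was seen, the difference between cell types in WT became 1.25 and that between genotypes in CD8 TILs -1.07 (exact permutation p = 0.057 for each). That p is the smallest that the remaining libraries allow, so this alternative could not have passed.

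**Figure D3:**
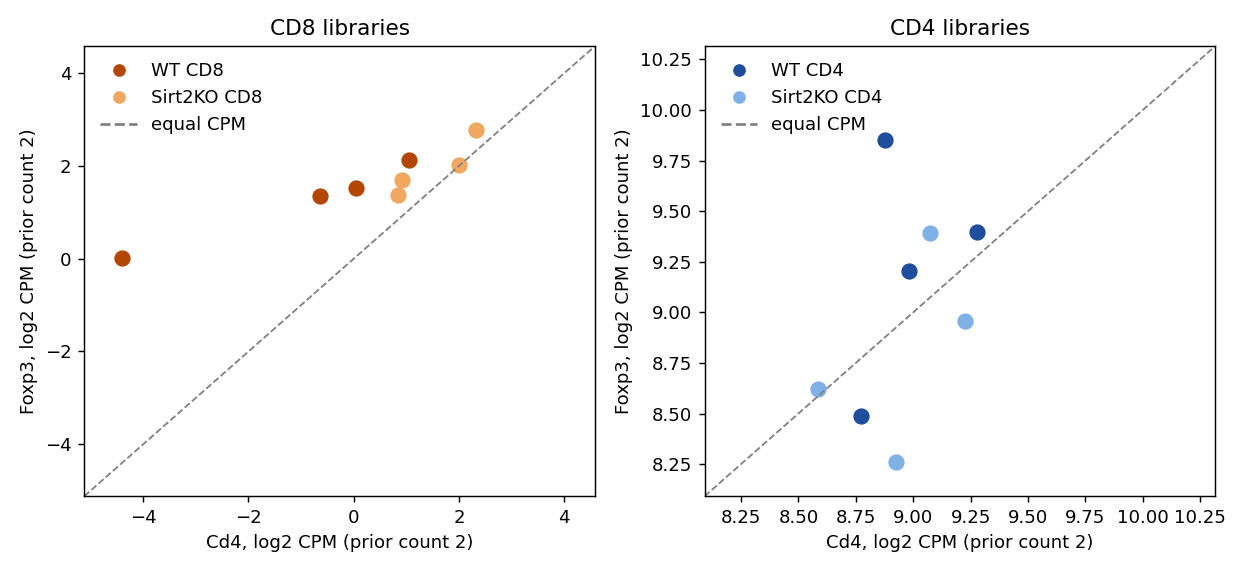
Foxp3 against Cd4 in the 8 CD8 libraries (left) and the 8 CD4 libraries (right), as log2 CPM with a prior count of 2 on both axes and 1 point per library. The dashed line marks equal CPM. In CD8 libraries the points rise from WT CD8 replicate 1, with 0 counts of Cd4, to Sirt2KO CD8 replicate 4, and the 4 WT libraries lie farther above the line than the Sirt2KO libraries.

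The second question was whether loss of Sirt2 changed these genes. In CD4 TILs none of the 10 members was called, as none of the 15070 genes tested was (0%), and 190 of those had an unadjusted p under 0.05. DESeq2 called 7 genes in this comparison and limma-voom 4, none of them a member. Every member overlapped between the genotypes, where 1.31% of genes lay higher and 1.82% lower in Sirt2KO without overlap, and 7 had a lower and 3 a higher estimate in Sirt2KO. The median of all genes tested lay at -0.112 on the log2 scale, which is the reference for these small differences, and the median of the members at -0.19. Foxp3 had a mean of 637 CPM ± 233 (SD, n = 4) in WT and 467 ± 157 in Sirt2KO CD4 TILs, a log2 difference of -0.44 with a 95% interval from -1.11 to 0.24.

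Ctla4 was the member with the largest positive estimate, and it rested on 1 library. It stood at 148, 368, 345 and 668 CPM in Sirt2KO CD4 replicates 1 to 4, where WT CD4 libraries had at most 322 CPM (log2 difference 0.51, 95% interval -0.35 to 1.37). Without Sirt2KO CD4 replicate 4 the difference was 0.12. Nrp1 was at the other end, at 94, 144, 153 and 225 CPM in Sirt2KO CD4 replicates 1 to 4 against 183 to 266 CPM in WT (log2 difference -0.49, 95% interval -1.03 to 0.06, edgeR unadjusted p = 0.075 and adjusted p = 1.0). For Il2ra the log2 difference was 0.06, for Ikzf2 -0.26, for Ikzf4 -0.32, for Lrrc32 -0.12, for Itgb8 -0.1, for Gpr83 0.21 and for Ccr8 -0.31. The interval of Ccr8, from -3.55 to 2.93, was the widest, since 1 Sirt2KO library had no count.

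Sirt2KO CD4 replicate 1 was the lowest of its group in 7 of the 10 members and the highest in none, and WT CD4 replicate 4 was the lowest in 8 and the highest in none. Over 12772 genes averaging 1 CPM or more, these libraries were the lowest of their group in 14.4% and 22% and the highest in 27.7% and 27.3%. In Sirt2KO CD4 replicate 1, Satb1, a chromatin organiser that is high in naive T cells, stood at 761 CPM against 348 to 503 CPM in the rest of its group. In WT CD4 replicate 4 it stood at 421 CPM, the highest of its group. Ccr7, a homing receptor of naive cells, was at 151 CPM in the first of these libraries, the highest of its group, and at 74.6 CPM in the second, below the 79.2 CPM of WT CD4 replicate 3. Markers of gamma-delta T cells (2 of 4 listed genes in the table) summed to 26.3 to 49 CPM in Sirt2KO and 1.26 to 10.8 CPM in WT CD4 libraries. The part of these cells in the member levels was not tested.

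In CD8 TILs none of the 10 members was called either. Of 15302 genes tested 1 was called (0.00654%), which was Sirt2 itself, and 579 had an unadjusted p under 0.05, whereas DESeq2 called 28 genes and limma-voom 5, none of them a member. The estimates were higher in Sirt2KO for 9 members and lower for Nrp1, with a median of 0.42 over the members and 0.011 over all genes tested. Foxp3 had a mean of 2.65 CPM ± 1.37 (SD, n = 4) in WT and 4.14 ± 1.85 in Sirt2KO CD8 TILs (log2 difference 0.65, 95% interval -0.45 to 1.74). The estimate of Cd4 in the same fit was 1.79 (SE 0.95), larger than that of Foxp3. Summed macrophage markers stood at 2.24 to 8.97 CPM in WT and 9.1 to 36.4 CPM in Sirt2KO CD8 libraries. Those of plasmacytoid dendritic cells stood at 12.9 to 45.3 CPM in WT and 45.4 to 58.9 CPM in Sirt2KO CD8 libraries. The ranges nearly met for both lists, and the sums were not tested. WT CD8 replicate 1, a library low in genes detected, gave the lowest value of both. Of the 5 listed plasmacytoid genes, 1 had 0 counts in all 4 libraries of each CD8 group. The sums do not show which genes differed between genotypes. The part of macrophages and plasmacytoid dendritic cells in the member levels was not tested.

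Gpr83 was the member that stood out in CD8 TILs. It had 3.24, 0.741, 0.689 and 0.584 CPM in Sirt2KO CD8 replicates 1 to 4, and 0 CPM, 0.238, 0.299 and 0.254 CPM in WT CD8 replicates 1 to 4. All Sirt2KO libraries lay above all WT libraries, as did 1.74% of the genes tested, at 29 to 159 counts against 0 to 11. The fitted log2 difference was 2.71 (95% interval 0.41 to 5, edgeR unadjusted p = 0.025 and adjusted p = 0.99), and it was 1.75 without Sirt2KO CD8 replicate 1. Gpr83 was thus not called. Ctla4 had 10.3, 21.1, 11.9 and 21.8 CPM in Sirt2KO CD8 replicates 1 to 4 against 9.29 to 13 CPM in WT (log2 difference 0.58, 95% interval -0.0028 to 1.17, edgeR unadjusted p = 0.051 and adjusted p = 0.99). Lrrc32 rested on Sirt2KO CD8 replicate 4, which had 10.5 CPM where the other 7 CD8 libraries had 1.91 to 4.42 CPM, and its estimate went from 0.66 to -0.11 without that library, which was also the highest in Cd4, Foxp3, Il2ra and Ikzf2.

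**Figure D4:**
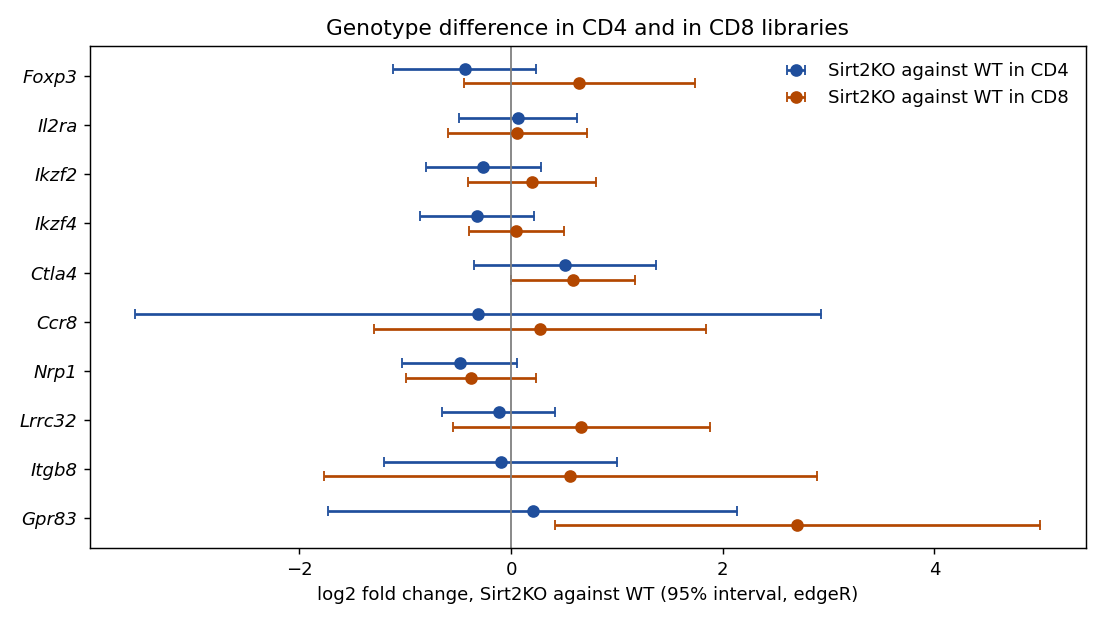
Log2 fold change of Sirt2KO against WT for the 10 genes in CD4 (blue) and CD8 (brown) TILs, with 95% intervals from edgeR (4 libraries per group). All intervals but that of Gpr83 in CD8 TILs include 0, that of Ctla4 in CD8 TILs only just, and no gene passes after adjustment over all genes.

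Whether loss of Sirt2 acted differently in CD4 and CD8 TILs was tested as an interaction in a fit of the 16 libraries. None of the 10 members was called, as none of 17270 genes was (0%), with 342 at an unadjusted p under 0.05 and 2 called by DESeq2. The largest estimates were those of Gpr83 at 2.51 (SE 1.25, edgeR unadjusted p = 0.06, adjusted p = 1.0) and Foxp3 at 1.09 (SE 0.56, edgeR unadjusted p = 0.072, adjusted p = 1.0). That of Cd4 in this fit was 1.8 (SE 0.81). The estimate was positive for 9 members and the median was 0.53, while that over all genes was 0.137.

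Other genes of the Treg program, listed by role, followed the members in part. Of 15 further surface and homing receptors, 13 were lower in WT CD8 than in WT CD4 TILs and none was higher, beside 6.96% and 4.89% of all genes tested. Among them were Tnfrsf4 (OX40), Icos and Tnfrsf18 (GITR), costimulatory receptors with log2 differences of -4.88, -3.09 and -2.34, and Izumo1r (-5.71), the folate receptor FR4 of Treg cells. The chemokine receptor Ccr4 (-6.08) and the IL-1 decoy receptor Il1r2 (-4.94) were lower too. In Sirt2KO TILs 7 of these 15 passed, again all lower, beside 1.32% of all genes. Between genotypes in CD8 TILs the summed level of the 15 was 844 to 984 CPM in WT and 1066 to 1370 CPM in Sirt2KO libraries, without overlap. Of the 14 tested there, 10 had a higher and 4 a lower estimate in Sirt2KO, none was called, and the sum was not tested.

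Of 18 partners and regulators of FOXP3, 9 were lower in WT CD8 TILs and none higher, beside the same 6.96% and 4.89% of all genes. Among them were Runx1 (log2 difference -2.37), a partner of FOXP3, Stat5b (-1.34), which carries the IL-2 signal, Gata3 (-1.22) and Ets1 (-1.14). Prdm1 (-1.44) and Irf4 (-1.36) are factors of effector T cells as well as of effector Treg cells. In Sirt2KO TILs, where 1.32% of all genes were lower, 5 of 18 passed, namely Runx1, Stat5b, Ets1, Irf4 and Gata3. Of the 9 suppressor molecules tested from a list of 11, 4 were lower in WT CD8 TILs (6.96% of all genes): Ebi3 (-6.52), a subunit of IL-35, Penk (-3.23), Nt5e (-1.72), which encodes the ectoenzyme CD73, and Tgfb1 (-0.77). Nt5e and Penk, 2 of 8 tested, passed in Sirt2KO TILs too (1.32% of all genes).

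In the IL-2 axis, 2 of 7 tested genes were lower in WT CD8 TILs, against 6.96% of all genes, Socs2 (-3.83) and Cish (-0.73), both feedback inhibitors of cytokine signaling, and in Sirt2KO TILs Socs2 alone passed, against 1.32% of all genes. Il2 itself was at most 2.44 CPM in any library. Among genes for TGF-β activation and its receptors, 5 of 10 tested were lower in WT CD8 TILs, against 6.96% of all genes: Furin (-1.01), Skil (-0.89), Ski (-0.82), Tgfbr1 (-0.74) and Smad7 (-0.63), and Skil alone passed in Sirt2KO TILs, against 1.32%. Of the T helper cytokines 2 were tested in WT, of which Il21 was lower (-6.08) and Ifng higher (1.78) in CD8 TILs. Of all genes, 6.96% were lower and 4.89% higher there. In Sirt2KO TILs Ifng, Il21 and Il5 were tested and none passed. None of the genes on these lists was called between genotypes in either cell type.

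Finally, the genes whose levels were most like that of Foxp3 were listed as a description. Over the 16 libraries and 12760 genes, the highest Pearson correlations of log2 CPM were those of Izumo1r (0.991), Lrrc32 (0.99), D430019H16Rik (0.986), Maf (0.984) and Ikzf2 (0.983). These mostly repeat the contrast between CD4 and CD8 libraries, and among the members Il2ra (0.979) and Ctla4 (0.971) were close behind while Nrp1 (0.779) and Ccr8 (0.501) were far. Within the 8 CD4 libraries the order was different, led by Trerf1 (0.984), Nfat5 (0.974), Ubash3b (0.952), Aim2 (0.95) and Wnk1 (0.937). There the closest members were Ikzf4 (0.89), Lrrc32 (0.887) and Ikzf2 (0.861), followed by Nrp1 (0.621), and Il2ra (0.42), Ctla4 (0.365) and Itgb8 (0.084) hardly followed Foxp3. Without the 2 CD4 libraries with few genes detected, chosen after the data were seen, Ikzf2 (0.955), Il2ra (0.894), Ctla4 (0.886), Ikzf4 (0.861), Lrrc32 (0.861) and Itgb8 (0.83) lay close together over 6 libraries, and Gpr83 (0.096) did not. Many genes reach such values over 6 libraries: Ikzf2 ranked 64, Il2ra 291 and Itgb8 645 among 12760 genes. Neb (0.992), Ube2c (0.991) and Tnf (0.99) led there, none of them named above for the 8 CD4 libraries.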

How the data were processed

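Total RNA of CD4+ and CD8+ TILs was made into stranded, rRNA-depleted libraries. The authors deposited whole-number counts per gene, not normalized, in 1 table of 55450 rows. The submitters' processing notes name STAR, HTSeq and mm10, without versions. All 55450 identifiers match GENCODE M21 (GRCm38). Whether counting used strand, and how reads shared by genes were treated, was not given in the sources used here.

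Groups follow the genotype and cell type that the labels give, with 4 libraries in each, with none left out of the main tests and no pair with identical values. Members and gene lists were chosen with earlier results of these data known. All 10 members were named in every comparison. From the other lists, called genes were named, up to 6 per list and comparison by smallest p. The 5 genes most correlated with Foxp3 were named among genes with a mean of at least 1 CPM.

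Counts were tested in R 4.3.3 with edgeR 4.0.16 (TMM, filterByExpr with the compared factor, robust quasi-likelihood test, Benjamini-Hochberg over all genes, threshold 0.05) on the 2 groups compared, or on all 16 libraries for the difference between cell types. All 10 members passed the filter in each comparison. CPM used TMM over all 16 libraries, and log2 CPM a prior count of 2. Foxp3 per Cd4 was tested by exact permutation (SciPy 1.17.1, Python 3.11.15), adjusted over 4 comparisons. The edgeR function was tested on simulated data, for the comparisons of 2 groups only. The simulation gave all genes the same dispersion and held no libraries low in detected genes. The other tools, the difference between cell types and the permutation tests were not simulated. Alternatives were DESeq2 1.42.0, its size factors in edgeR, limma-voom (limma 3.58.1), no filter, 1 model for all 16 libraries, a block for the replicate number, and leaving out each library or the 3 with under 15000 genes detected. Floors of 3 counts and intervals of counts cover counting error only, as reads had no molecular identifiers.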

Additional observations from a re-analysis of the deposited data

Results flagged for a closer look

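In 44 groups of 4 values (the 10 members and Cd4 in each of the 4 groups), 3 had 1 library far from the other 3 by Dixon's criterion, where chance flags about 1 in 20, or 2.2 of 44. All 3 lie in Sirt2KO CD8 TILs, each in another library. Gpr83 was at 3.24 CPM in replicate 1 against 0.584 to 0.741 CPM in the other 3, and the genotype difference of 2.71 on the log2 scale was 1.75 without this library. Nrp1 was at 123 CPM in replicate 3 against 47.3 to 55.9 CPM, and that library was the highest of its group in 4 of the 10 members. Il2ra was at 152 CPM in replicate 4 against 69.4 to 81.2 CPM, in the library that was also highest in Cd4 (4.94 CPM) and Foxp3 (6.77 CPM). The causes were not tested.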

How the results depend on the processing

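The call that all 10 members are lower in WT CD8 than in WT CD4 TILs kept its count of 10 under every alternative except all 16 libraries in 1 model (9, without Ccr8, edgeR adjusted p = 0.18). In Sirt2KO TILs the count of 6 became 10 under limma-voom, 8 under DESeq2 and 9 when the 3 libraries low in detected genes were dropped. With all 16 libraries in 1 model Nrp1 passed as well (edgeR adjusted p = 0.033). Dropping any 1 library gave 5 to 9, and 9 came without Sirt2KO CD4 replicate 4. Between genotypes the count was 0 under every alternative that was run. The scaling also matters for small differences: the median of all genes lay at 0.163 for cell types in Sirt2KO, at -0.112 for genotypes in CD4 TILs and at 0.137 for their difference. Estimates near 0 changed sign. For genotypes in CD4 TILs, Il2ra was -0.10 with limma-voom, -0.15 without the 3 low libraries and -0.0099 with the replicate number as a block, Lrrc32 was 0.08 and 0.044 under the first 2 of these, and Ccr8 was 0.065 with limma-voom. In CD8 TILs Il2ra was -0.16 with limma-voom and -0.15 without the 3 low libraries. For the difference between cell types Il2ra was 0.016 with the size factors of DESeq2, 0.016 with DESeq2 and 0.08 with the block. Leaving out 1 library moved the genotype difference in CD4 TILs from -0.94 to 0.11 for Ccr8, from -0.16 to 0.26 for Il2ra, from -0.40 to 0.16 for Itgb8 and from -0.31 to 0.043 for Lrrc32. In CD8 TILs it moved from -0.23 to 0.67 for Ccr8, from -0.064 to 0.40 for Ikzf2, from -0.17 to 0.18 for Ikzf4, from -0.27 to 0.25 for Il2ra and from -0.11 to 0.94 for Lrrc32, and for the difference between cell types from -0.20 to 0.48 for Ctla4, from -0.33 to 0.21 for Il2ra and from -0.31 to 0.36 for Nrp1. With Cd40lg in place of Cd4, Foxp3 per Cd4 became -0.71 and -2.71 for cell types in WT and Sirt2KO and 2.29 and 0.29 for genotypes in CD4 and CD8 TILs. Cd40lg has 0 counts in Sirt2KO CD4 replicate 4 and in WT CD8 replicate 1, and none of these passed (exact permutation, lowest adjusted p = 0.57). The labels do not say whether same-numbered libraries come from 1 animal. Their deviations correlated between 0.067 and 0.119 for CD4 and CD8 libraries in WT, where 3 of 4 pairs were over 0.1. Each WT CD4 library was closest to its own number. Replicate 1 of both WT cell types was low in genes detected, at 12587 in CD4 and 14411 in CD8. Whether the WT libraries are paired was not tested. In Sirt2KO the correlations lay between -0.014 and 0.133, and only CD4 replicate 1 was closest to its own number. Across genotypes they lay between -0.072 and 0.077. With the replicate number as a block the counts of members called were again 10, 6, 0, 0 and 0. Over all genes, the number called between cell types was 1765 in WT and 354 in Sirt2KO, against 811 and 781 with all 16 libraries in 1 model, 5504 and 4481 with limma-voom, 2638 and 1339 with DESeq2, 4394 and 4250 without the 3 low libraries, and 1619 and 108 with the block. Between genotypes in CD8 TILs 1 gene was called, against 28 with DESeq2, 7 without the low library and 5 with limma-voom. The causes were not tested. Fewer than 100 counts lie behind most CD8 values of Gpr83, Itgb8 and Ccr8, which limits their precision.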
